A study of Mus musculus with 15 samples.

Results

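Genes of the oligodendrocyte lineage were followed in mouse medulloblastomas, cerebellar tumours of Ptch1+/- mice, and in normal cerebella. The 9 genes were Pdgfra, Cspg4, Olig1 and Olig2, known from oligodendrocyte precursors, and Mbp, Mog, Mag, Mal and Mobp, whose proteins belong to myelin. They were chosen by name through the RefSeq transcript given for each array probe, and 17 probes measured them, out of 32628 names on the array. All 9 passed the filter on dim signals, which kept 21661 names for testing. RNA of 15 samples had been hybridised singly to 15 one-colour arrays in 5 groups of 3. The R-type tumours arose after X-irradiation at postnatal day 1 with 1.5 Gy (MB10 to MB12, labelled age 87 to 103) or 0.2 Gy (MB7 to MB9, age 106 to 127). The S-type tumours arose after 0.2 Gy (MB4 to MB6, age 128 to 135) or without irradiation (MB1 to MB3, age 160 to 173). Each of the 12 tumours came from a Ptch1+/- mouse of the C3B6F1 background, which keeps 1 working copy of Ptch1 in its germline. The 3 normal cerebella came from unirradiated females of age 103 to 113. Their labels gave no strain or genotype, the unit of age was not given, and MB6 was the only tumour from a male. What R and S stand for was not stated. The comparisons asked how tumours differ from normal cerebellum, how R-type differ from S-type tumours, and how dose bears on each type.

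Oligodendrocytes wrap axons of the central nervous system in myelin. They arise from precursor cells that divide in answer to platelet-derived growth factor A through its receptor, Pdgfra, and that carry the surface proteoglycan NG2, the product of Cspg4. The transcription factors Olig1 and Olig2 act in both stages, and Olig2 is also known from granule neuron precursors and stem-like cells of Sonic hedgehog medulloblastoma. Myelin genes are switched on when precursors stop dividing and mature, and in the cerebellum most myelin lies in the white matter.

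The arrays were close in quality measures, with the fewest probes well above background in MB3 (24288) and MB6 (24298). Between 24288 and 27318 probes per array (59.1% to 66.5%) were well above background, and the 75th percentile of the signal lay between 1183.9 and 1611.1 units. All levels below are log2 signals relative to that percentile of the array, so that 0 is its level and a step of 1 is a doubling. Ptch1, whose probe was not mapped to the disrupted exons and so checks no genotype, lay between −3.16 and −2.71 in R-type tumours, between −2.08 and −1.46 in S-type tumours and between −3.33 and −3.03 in normal cerebella. Marker genes differed between the tissues. Of 9 tested markers of granule precursors and Sonic hedgehog tumours, 8 were higher in tumours, and all 10 tested neuron markers of normal cerebellum were lower. Over all tested genes 43.5% were higher and 35.4% lower. In single samples, MB3 stood apart for several of the genes described here, so values without it are given beside the results it moved most. Normal 2 had the highest signal of the 3 normal cerebella for 8 of the 9 genes, precursor and myelin genes alike. The arrays lay on 4 slides, of which slides 1 to 3 held 1 normal cerebellum and 3 tumours each and slide 4 held 3 tumours.

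The start regions of 4 genes are shown for their sequence. By the brightest probe of each gene, Pdgfra and Olig2 are the precursor genes with the largest increases in tumours. On the same probes Mobp has the largest decrease among myelin genes measured above background there, and Mog is the myelin gene in the background in all tumours. They come from RefSeq on build GRCm38.p6, 250 bases before and 50 after the annotated start, printed 5′ to 3′ on the strand of the gene. Capitals mark 4 motifs on either strand, the E-box CANNTG, the GLI motif GACCACCCA, the SOX core ACAANG and the MYRF motif CTGGNAC. These are letters known from binding by basic helix-loop-helix factors such as Olig1 and Olig2, by the Gli factors of hedgehog signalling, by Sox factors, and by the myelin regulatory factor.
Pdgfra promoter, chr5:75152001-75152300, plus strand: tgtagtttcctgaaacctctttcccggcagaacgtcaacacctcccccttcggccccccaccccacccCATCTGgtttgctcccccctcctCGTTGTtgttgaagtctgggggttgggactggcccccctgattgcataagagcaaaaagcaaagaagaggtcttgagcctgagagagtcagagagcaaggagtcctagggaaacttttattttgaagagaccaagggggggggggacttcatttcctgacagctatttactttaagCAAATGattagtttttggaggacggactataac
Olig2 promoter, chr16:91225300-91225599, plus strand: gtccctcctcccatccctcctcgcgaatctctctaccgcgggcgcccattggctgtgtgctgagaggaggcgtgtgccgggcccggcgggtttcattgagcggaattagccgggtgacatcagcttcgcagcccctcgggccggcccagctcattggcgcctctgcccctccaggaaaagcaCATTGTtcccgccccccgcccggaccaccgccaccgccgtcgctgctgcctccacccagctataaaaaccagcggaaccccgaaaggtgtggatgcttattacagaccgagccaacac
Mobp promoter, chr9:120149492-120149791, plus strand: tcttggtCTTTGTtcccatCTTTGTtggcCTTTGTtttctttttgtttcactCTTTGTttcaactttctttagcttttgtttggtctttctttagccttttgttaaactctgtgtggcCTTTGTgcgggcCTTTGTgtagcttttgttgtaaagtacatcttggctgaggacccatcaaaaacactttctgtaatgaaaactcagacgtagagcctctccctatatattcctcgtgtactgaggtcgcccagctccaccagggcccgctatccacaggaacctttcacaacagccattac
Mog promoter, chr17:37023349-37023648, minus strand: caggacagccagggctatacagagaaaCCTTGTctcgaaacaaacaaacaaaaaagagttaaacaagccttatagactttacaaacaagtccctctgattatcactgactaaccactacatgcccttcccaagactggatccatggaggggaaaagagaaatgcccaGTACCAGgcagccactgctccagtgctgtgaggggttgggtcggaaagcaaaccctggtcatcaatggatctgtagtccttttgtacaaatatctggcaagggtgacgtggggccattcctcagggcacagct
The Pdgfra region held 2 E-boxes and 1 SOX core. The Olig2 region held 1 SOX core, and the Mog region held 1 SOX core and 1 MYRF motif. The Mobp region held 6 SOX cores, a number reached by 5 of 32851 such regions (0.0152%). No motif overlapped another in these regions. A start region was at hand for 7 of the 9 genes (Pdgfra, Cspg4, Olig2, Mal, Mag, Mobp and Mog, with 3 entries for Mag and none used for Olig1 and Mbp). Among the 7, the E-box occurred in 2, the SOX core in 5, the MYRF motif in 2 and the GLI motif in 0, where 72.3%, 41.2%, 19.3% and 0.253% of all such regions held them. A match describes letters and not a bound site.

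The precursor genes and the myelin genes parted between tumours and normal cerebella. Of the 4 precursor genes 3 were higher in tumours, by log2 changes of 2.06 to 4.30, and of the 5 myelin genes 4 were lower, by measured changes of −5.71 to −4.18 (limma, adjusted p under 0.05). Calls were common in this comparison, at 43.5% of all tested genes higher and 35.4% lower, so the counts alone say little about these genes. All 3 called precursor genes were also at least 4-fold higher, as were 24.2% of the genes called higher (10.6% of all tested), and the 4 called myelin genes at least 4-fold lower, as were 33.1% of those called lower (11.7% of all tested). That limit was chosen after the values were seen, and Cspg4 fell below it in several alternatives, such as its other probe (1.81) and leaving out Normal 3 or MB2 (1.95 each). The median change was 2.33 over the precursor genes and −4.32 over the myelin genes (−4.18 with Mog at its bound), against 0.14 over all tested genes. Each array measured RNA of a whole piece of tissue, in which fewer cells of a type and less RNA per cell cannot be told apart.

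Pdgfra, the receptor through which platelet-derived growth factor A drives precursor division, gave the largest increase of the 9. It read 3.07, 2.70 and 3.04 in R-type tumours at 1.5 Gy, 2.42, 2.90 and 2.61 in R-type tumours at 0.2 Gy, 2.64, 2.87 and 2.56 in S-type tumours at 0.2 Gy, 1.33, 1.59 and 3.01 in S-type tumours at 0 Gy, and −1.81, −1.44 and −1.98 in normal cerebella. The tumours lay well above all 3 normal cerebella, with MB1 and MB2 the lowest of them. The mean was 2.56 ± 0.56 in tumours (SD, n = 12) and −1.74 ± 0.28 in normal cerebella (n = 3), a log2 change of 4.30 (SE 0.27), or 19.8-fold, with an adjusted p of 1.92e-08 in limma. A dimmer probe of Pdgfra was well above background in all 12 tumours and in 0 of 3 normal cerebella, and it was at least 2.86-fold higher in tumours.

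Cspg4, the NG2 proteoglycan of precursor cells and of pericytes, was 4.18-fold higher. It read 0.78, 0.37 and 0.73 in R-type tumours at 1.5 Gy, 1.08, 1.04 and 1.33 in R-type tumours at 0.2 Gy, 1.44, 1.30 and 1.63 in S-type tumours at 0.2 Gy, 1.02, 1.77 and −0.16 in S-type tumours at 0 Gy, and −1.04, −0.80 and −1.27 in normal cerebella. The groups did not overlap, and MB3 was the lowest tumour. The mean was 1.03 ± 0.54 in tumours and −1.04 ± 0.23 in normal cerebella, a log2 change of 2.06 (SE 0.28, limma adjusted p 2.42e-05), and its other probe changed by 1.81.

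Olig2, a basic helix-loop-helix factor that founds the lineage, was 6.09-fold higher. It read 0.40, 1.26 and 0.22 in R-type tumours at 1.5 Gy, 0.98, 0.65 and 0.80 in R-type tumours at 0.2 Gy, 1.21, 1.52 and 1.28 in S-type tumours at 0.2 Gy, 1.19, 1.27 and −0.20 in S-type tumours at 0 Gy, and −2.06, −1.11 and −2.01 in normal cerebella. Again the tumours lay above the normal cerebella, and MB3 was the lowest of them. The log2 change was 2.61 (SE 0.31, limma adjusted p 6.73e-06). The other Olig2 probe was well above background in all 12 tumours, at −4.53 to −3.39, and in 0 of 3 normal cerebella, and was at least 3.44-fold higher in tumours. On that probe MB3 read −3.59 and was not low.

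Olig1, the partner of Olig2 that is needed for myelin repair, did not pass. It read 1.85, 1.80 and 1.56 in R-type tumours at 1.5 Gy, 2.31, 1.90 and 2.20 in R-type tumours at 0.2 Gy, 2.51, 2.35 and 2.79 in S-type tumours at 0.2 Gy, 1.60, 2.59 and −0.31 in S-type tumours at 0 Gy, and 0.77, 1.70 and 0.80 in normal cerebella. MB3 lay below all normal cerebella, and the other tumours overlapped only with the highest of these, Normal 2. The log2 change was 0.84 (95% interval −0.10 to 1.78, limma adjusted p 0.0924). Without MB3 it was 1.04 with an adjusted p of 0.00152, so that this 1 tumour decided the call.

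**Figure D1:**
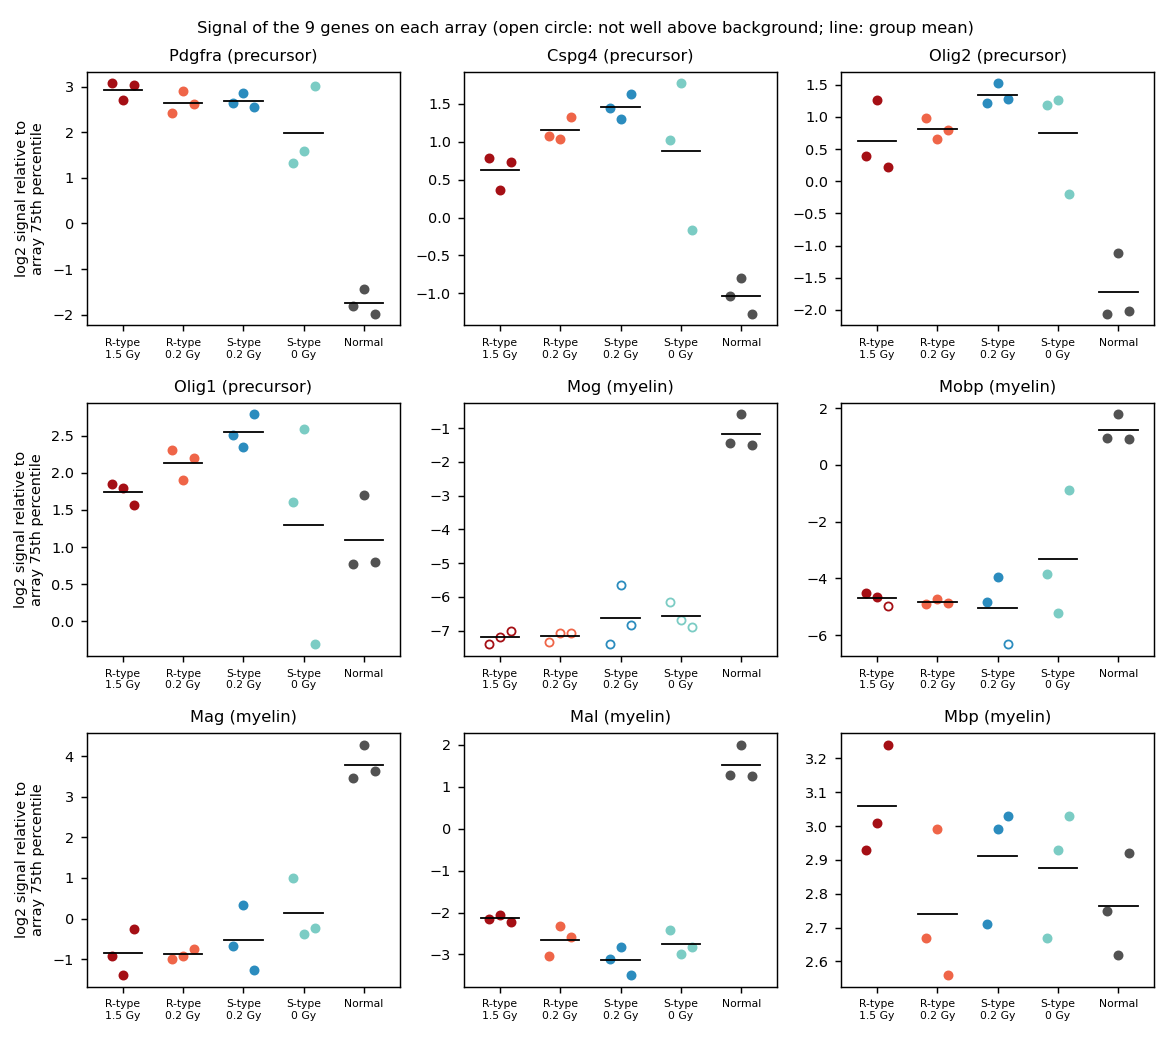
Log2 signal of the 9 genes on each array, in steps from its 75th percentile, by group (3 arrays each), with the 4 tumour groups left of normal cerebellum. Filled circles are signals well above background, open circles are not, and lines are group means. Pdgfra, Cspg4 and Olig2 were higher in all tumours than in normal cerebella, Mog, Mobp, Mag and Mal were lower, and Mbp on its brightest probe stayed between 2.56 and 3.24 throughout.

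Among the myelin genes, Mog, a surface protein of the outermost myelin layer, was not well above background on any tumour array. Its single probe read −7.39, −7.19 and −7.01 in R-type tumours at 1.5 Gy, −7.33, −7.07 and −7.08 in R-type tumours at 0.2 Gy, −7.41, −5.64 and −6.84 in S-type tumours at 0.2 Gy, −6.14, −6.68 and −6.89 in S-type tumours at 0 Gy, and −1.45, −0.58 and −1.49 in normal cerebella. The tumour values have no order among themselves, since they lay in the background. Mog was therefore at least 17.8-fold lower in tumours, a bound made with each tumour signal raised to the lowest signal well above background on its array (limma adjusted p 4.21e-09 for the measured change of −5.71).

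Mobp, a small basic protein of compact myelin, fell by 5.69 on the log2 scale (SE 0.69, limma adjusted p 7.75e-06). It read −4.51, −4.66 and −4.96 in R-type tumours at 1.5 Gy, −4.89, −4.72 and −4.86 in R-type tumours at 0.2 Gy, −4.83, −3.95 and −6.33 in S-type tumours at 0.2 Gy, −3.86, −5.21 and −0.88 in S-type tumours at 0 Gy, and 0.96, 1.79 and 0.91 in normal cerebella. The groups did not overlap, MB12 and MB6 were not well above background, and MB3 came closest to the normal cerebella. Its other probe, which the files assign to a different Mobp transcript, was well above background in 0 of 12 tumours, MB3 included at −7.03, and gave a decrease of at least 40.7-fold. Whether MB3 holds another Mobp transcript was not tested.

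Mag, an adhesion protein of the myelin layer next to the axon, was well above background in all tumours on its brighter probe. It read −0.93, −1.39 and −0.25 in R-type tumours at 1.5 Gy, −0.99, −0.91 and −0.75 in R-type tumours at 0.2 Gy, −0.68, 0.34 and −1.27 in S-type tumours at 0.2 Gy, 1.01, −0.39 and −0.22 in S-type tumours at 0 Gy, and 3.45, 4.28 and 3.63 in normal cerebella. The lowest normal cerebellum lay more than 2 log2 units above the highest tumour, MB1. The log2 change was −4.32 (SE 0.36, limma adjusted p 2.3e-07). It was −5.04 on the other probe, which was well above background in 9 of 12 tumours.

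Mal, a raft proteolipid of myelin that also works in membrane traffic of epithelial cells, fell by 4.18 on the log2 scale (SE 0.19, limma adjusted p 1.21e-09). It read −2.15, −2.05 and −2.22 in R-type tumours at 1.5 Gy, −3.04, −2.33 and −2.58 in R-type tumours at 0.2 Gy, −3.11, −2.82 and −3.49 in S-type tumours at 0.2 Gy, −2.42, −2.98 and −2.83 in S-type tumours at 0 Gy, and 1.29, 2.00 and 1.25 in normal cerebella. The tumours were tightly grouped below the normal cerebella, with an SD of 0.44 over the 12, against 0.69 for Mag. The other Mal probe changed by −4.15.

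Mbp, the basic protein that compacts myelin, gave different answers on its probes. The brightest over the 15 arrays, assigned to transcript NM_001025245, read 2.56, 2.96 and 3.24 as the lowest, median and highest of the tumours and 2.75, 2.62 and 2.92 in normal cerebella. Those ranges overlapped, and the log2 change was 0.13 (95% interval −0.12 to 0.38, limma adjusted p 0.304). Both probes assigned to NM_010777 were lower in tumours instead. One read 0.03, −3.23 and 0.86 in R-type tumours at 1.5 Gy, −1.32, −0.64 and −0.13 in R-type tumours at 0.2 Gy, 0.43, 2.12 and −1.24 in S-type tumours at 0.2 Gy, 2.53, 0.80 and 1.05 in S-type tumours at 0 Gy, and 5.21, 6.09 and 5.48 in normal cerebella. Every tumour lay below the normal cerebella on it, MB11 lowest, and the log2 change was −5.49 (limma over all probes, adjusted p 3.84e-05). The second, well above background in 10 of 12 tumours, changed by −5.90 (adjusted p 9.76e-06). The mean of the 3 probes changed by −3.75. The Mbp gene is known to give, besides the myelin transcripts, Golli transcripts from a start further upstream that are also made outside myelinating cells. Which transcripts each probe detects is not given in the sources used here and was not tested. The brightest probe set the count of 4 lower myelin genes, and 9 of the 10 myelin probes were lower.

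**Figure D2:**
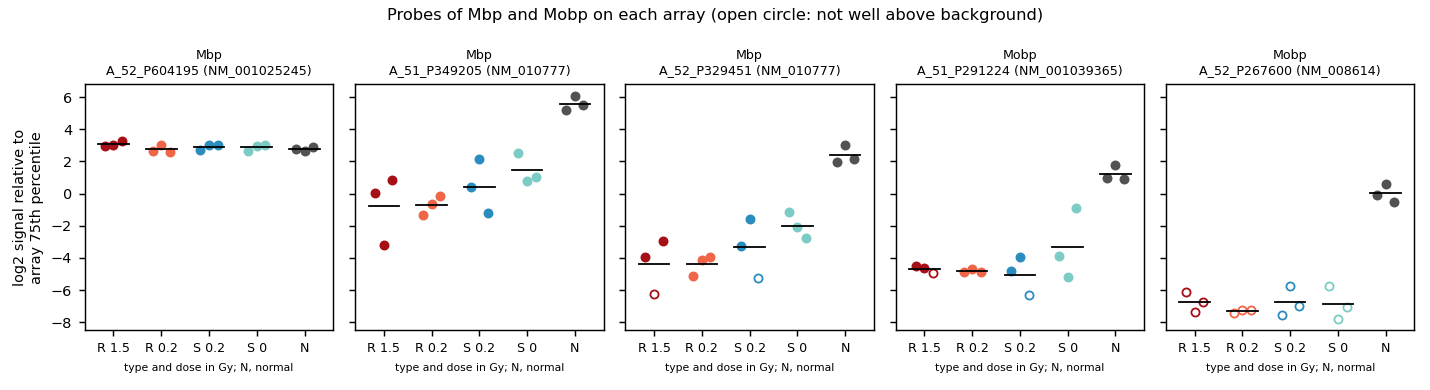
Log2 signal of the 3 probes of Mbp and the 2 probes of Mobp on each array (R and S, tumour types with dose in Gy; N, normal cerebellum), filled where well above background, with group means as lines. The Mbp probe of NM_001025245 is level across groups while both NM_010777 probes are lower in tumours, and MB3 is near the normal cerebella on 1 Mobp probe (−0.88) and in the background on the other (−7.03).

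The same genes passed in each tumour group set against normal cerebellum, with Olig1 as the exception. In R-type tumours at 1.5 Gy 3 of the 9 genes were higher and 4 lower (limma; 41.2% and 33.4% of all genes), as in R-type tumours at 0.2 Gy (40.9% and 33.3%). In S-type tumours at 0.2 Gy 4 were higher and 4 lower (40.9% and 33.0%), and in S-type tumours at 0 Gy 3 and 4 (41.2% and 33.1%). The fourth was Olig1 in S-type tumours at 0.2 Gy, with a log2 change of 1.46 (adjusted p 0.0286). That call was kept in 19 of 24 alternatives and lost with slide as a block (1.33, adjusted p 0.0747) and without Normal 1, Normal 3, MB4 or MB6 (adjusted p up to 0.0846). Across the 4 groups the change of Pdgfra ranged between 3.72 and 4.68, of Olig2 between 2.35 and 3.06, of Cspg4 between 1.66 and 2.49, of Mag between −4.67 and −3.65, of Mal between −4.65 and −3.65, and of Mobp between −6.26 and −4.53. All 4 groups share the 3 normal cerebella. Within slides 1 to 3, the difference between the tumours and the normal cerebellum of the slide was 4.21 to 4.68 for Pdgfra, 1.68 to 3.04 for Olig2, 1.22 to 2.44 for Cspg4 and −0.57 to 1.64 for Olig1. For the myelin genes it was −6.47 to −5.52 for Mog, −6.31 to −5.21 for Mobp, −5.12 to −4.27 for Mag, −4.40 to −4.04 for Mal and −0.05 to 0.39 for Mbp on its brightest probe.

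**Figure D3:**
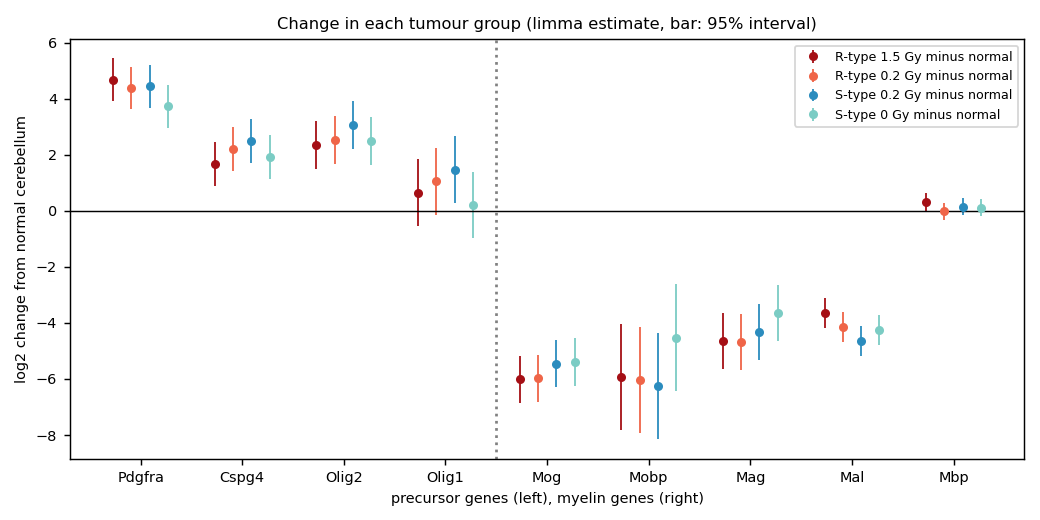
Log2 change of each gene in the 4 tumour groups against normal cerebellum (3 arrays a group), as limma estimates with 95% intervals. The horizontal line is no change, and Mog is drawn at its measured signal although its tumour values lie in the background. Pdgfra is highest in each group (3.72 to 4.68), and Mog, Mobp, Mag and Mal lie below −3.6 in each.

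Between R-type and S-type tumours 1 of the 9 genes passed, Mal, which was higher in R-type tumours. Called genes made up 10.9% of all genes in that direction and 10.1% in the other. The Mal values given above had a mean of −2.40 ± 0.36 in R-type tumours and −2.94 ± 0.35 in S-type tumours (SD, n = 6 each), a log2 change of 0.54 (SE 0.17, limma adjusted p 0.0448), and the types overlapped. The other Mal probe gave 0.77 (limma over all probes, adjusted p 0.00825). Within the 4 slides the difference was 1.08, 0.64, 0.48 and 0.05. The call on the brighter probe was lost without any 1 of 11 arrays (Normal 1, Normal 3, MB2, MB3, MB4, MB6, MB8, MB9, MB10, MB11 or MB12, adjusted p up to 0.0993) and without scaling between arrays (0.32, adjusted p 0.124). At the dose both types share, 0.2 Gy, the change of Mal was 0.49 (95% interval −0.05 to 1.03, limma adjusted p 0.272). The labelled ages of the types do not overlap, so age and type cannot be told apart.

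The other genes did not pass between the types. Pdgfra changed by 0.46 (95% interval −0.08 to 0.99), Olig1 by 0.02 (−0.82 to 0.86), Olig2 by −0.32 (−0.93 to 0.28) and Cspg4 by −0.28 (−0.83 to 0.28). MB3 bore on these values. Without it Pdgfra was higher in R-type tumours by 0.72 (limma adjusted p 0.00396) and Cspg4 lower, at −0.54 (adjusted p 0.0266), while Olig1 read −0.38 and Olig2 −0.56, which did not pass. With all arrays, the dimmer Pdgfra probe gave 0.87 (limma over all probes, adjusted p 0.0749). Mag changed by −0.67, and Mobp by −0.59, which became 0.02 without MB3. Mog was in the background in both types, so no change is given for it. Mbp on its brightest probe changed by 0.01, while its NM_010777 probes gave −1.69 (adjusted p 0.112) and −1.72 (adjusted p 0.0818). The median change was −0.13 over the precursor genes, against 0.02 over all genes. Without scaling the median over all genes moved to −0.20, and Mag (−0.89, adjusted p 0.0464) then passed as lower in R-type tumours, as did the background signals of Mog.

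At the shared dose of 0.2 Gy, 0 of the 9 genes passed between R-type and S-type tumours (limma; 4.77% of all genes in either direction), with 0 at an unadjusted p under 0.05. Their changes ranged between −0.53 and 0.49. Between S-type tumours at 0.2 Gy and at 0 Gy 0 of 9 passed (0.00462% of all genes), and 1 had an unadjusted p under 0.05, Olig1, at 1.26 (adjusted p 0.848). Without MB3 that change of Olig1 was 0.46. Mobp read −1.72 in the same comparison (95% interval −3.63 to 0.18) and −0.51 without MB3. Pdgfra read 0.72 in it, and 1.23 without MB3 (limma adjusted p 0.151). Its dimmer probe gave 0.25 with all arrays. Between R-type tumours at 1.5 Gy and at 0.2 Gy 0 of 9 passed (0.0692% of all genes), and 1 had an unadjusted p under 0.05, Mbp on its brightest probe, at 0.32 (adjusted p 0.706). Mal read 0.51 in it (95% interval −0.03 to 1.05). Within each type the labelled ages of the dose groups do not overlap, so dose and age cannot be told apart.

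Other genes of the lineage were read from lists. Over all tested genes, 43.5% were higher in tumours and 35.4% lower. Between the types 10.9% were higher and 10.1% lower in R-type tumours. Counts near these shares say little about a list. Of 27 tested other myelin and mature oligodendrocyte genes, 24 were lower in tumours, 1 was higher and 2 did not pass, with a median change of −2.67. Those with the smallest p were Tppp, a tubulin-binding protein of oligodendrocytes (−4.80, SE 0.28, limma adjusted p 1.04e-08), Evi2a (−2.14), the tetraspanin Tspan2 (−2.46) and the carbonic anhydrase Car2 (−3.43). The 1 higher gene was Anln, an actin-binding protein that builds the contractile ring of dividing cells as well as the septin scaffold of myelin (1.60, chosen after its value was seen). Apod (−0.71) and Gjb1 (−0.92) did not pass. Between the types 1 of the 27 passed, Hapln2, a link protein of the nodes of Ranvier, which was well above background in 0 of 6 R-type and 2 of 6 S-type tumours. Its limma call (adjusted p 0.0444) rests on background signals, and no fold change is given for it.

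The other precursor genes did not move as one. Of 16 tested, 3 were higher, 4 lower and 9 did not pass, with a median change of −0.33. Among the higher, Pcdh15 was well above background in 3 of 12 tumours and 0 of 3 normal cerebella. Its limma call (adjusted p 0.0191) rests mostly on background signals, and no fold change is given for it. C1ql1, a secreted protein of the C1q family, averaged 1.25 in tumours and −3.91 in normal cerebella, a log2 change of 5.16 (SE 0.18, limma adjusted p 1.15e-10). The proteoglycan Vcan was also higher (1.47), and the calcium channel Itpr2 (−0.61) and the matrix protein Tnr were lower. Tnr was well above background in all 3 normal cerebella but in only 1 tumour, so no fold change is given for it. Between R-type and S-type tumours Vcan (0.93) and the Wnt effector Tcf7l2 (0.86) were higher and C1ql1 (−0.73) was lower, each called by limma, at adjusted p of 0.00487, 0.00702 and 0.00946.

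Of 16 tested transcription factors of the lineage, 4 were higher, 5 were lower and 7 did not pass. Sox9, a glial fate factor, was higher by 1.95, and Zeb2, which promotes myelination, by 1.29. Nkx6-2, a homeodomain factor of maturing oligodendrocytes, was lower at −4.42, and Id4, an inhibitor of differentiation, at −5.96. Between the types Sox9 (0.38), Zfp536 (0.47) and Tcf7l2 (0.86) were higher and Nkx6-2 (−1.15) was lower in R-type tumours. Of the growth factors of the Pdgfra pathway, Pdgfa, its main ligand in the brain, lay between 4.84 and 6.10 in tumours and between 2.93 and 3.19 in normal cerebella, a log2 change of 2.40 (SE 0.21, limma adjusted p 3.28e-07). Pdgfc was higher as well (1.86) and Pdgfd lower (−3.20), while Pdgfrb read 0.49 and did not pass.

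The tumours differed among themselves in ways the groups did not follow. MB3 was the lowest of the 12 tumours for 3 of the 4 precursor genes, Cspg4, Olig1 and Olig2, and MB1 for Pdgfra. For the 16 other precursor genes MB11 was the lowest tumour for 9 and MB2 the highest for 9. These ranks also count signals in the background, which have no order among themselves, such as Neu4 (−7.59) and Pcdh15 (−7.6) in MB11. Gpr17, a receptor of committed precursors, is shown as an example chosen after its values were seen. It read 2.36, −1.52 and 1.66 in R-type tumours at 1.5 Gy, 2.14, 1.73 and 3.07 in R-type tumours at 0.2 Gy, 2.46, 2.24 and 3.86 in S-type tumours at 0.2 Gy, 0.99, 4.03 and −1.23 in S-type tumours at 0 Gy, and 1.85, 2.12 and 1.72 in normal cerebella. MB11 and MB3 stood well below all others, and MB2 and MB6 above. Nkx2-2, a homeodomain factor of the lineage, was lowest in the same pair, at −6.30 in MB11 and −5.50 in MB3, both not well above background, while the other tumours read −3.84 to −1.97. On its brightest probe Pdgfra did not share that order, at 2.70 in MB11, 3.01 in MB3 and 1.59 in MB2. Its values there lay near the middle or upper end in both tumours where Gpr17 was lowest, and near the bottom in the one where Gpr17 was highest. On the dimmer Pdgfra probe MB11 read −3.58, MB3 −4.31 and MB2 −4.43, with the tumours at −4.98 to −2.53. MB3 and MB2 thus lay close together on that probe.

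**Figure D4:**
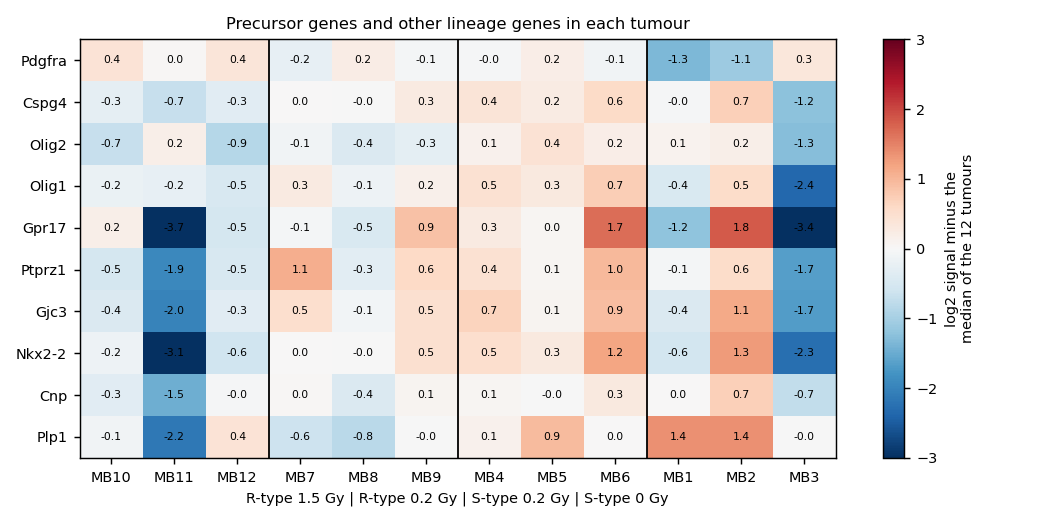
Log2 signal of the 4 precursor genes and 6 other lineage genes (chosen after their values were seen) in each of the 12 tumours, minus the median of the tumours for that gene, on a colour scale from −3 to 3. Gpr17, Ptprz1, Gjc3 and Nkx2-2 are lowest in MB11 and MB3, while Pdgfra on its brightest probe is lowest in MB1 and MB2.

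Markers of other cells that can hold these genes were read beside them, where 43.5% of all tested genes were higher in tumours and 35.4% lower. Pdgfra is also known from fibroblasts and meninges. Of 9 tested markers of those, 3 were higher in tumours (Col3a1 by 3.20, Col1a1 by 1.57 and Lum by 1.34). Another 2 were lower, Ogn (−3.65) and Twist1, and 4 did not pass, among them Dcn (−0.06). Twist1 was well above background in 0 of 6 R-type and 1 of 6 S-type tumours, so no fold change is given for it. The summed signal of the 9, in units of the 75th percentile, was 7.74 to 28.8 in tumours and 5.9 to 13.1 in normal cerebella. Cspg4 is also known from pericytes. Of 9 tested pericyte and smooth muscle markers, 5 were higher (Acta2 by 1.44, Abcc9 by 2.60, Kcnj8 by 2.08, Tagln by 1.13, and Anpep). Another 2 were lower (Notch3 at −0.58, and Vtn) and 2 did not pass (Pdgfrb and Rgs5). The 9 summed to 17.4 to 33.5 in tumours and 14.7 to 19.6 in normal cerebella. Between the types Tagln (0.95) and Notch3 (0.55) were higher in R-type tumours. Some myelin genes are also made by Schwann cells. All 4 tested markers of these were higher in tumours, Prx by 2.61 and Foxd3 at least 1.38-fold among them. Pmp2 was well above background on no array of tumours or normal cerebella, while Egr2, a zinc finger factor of Schwann cells and hindbrain that also answers to growth factors, was at least 82.2-fold higher in tumours and the neurotrophin receptor Ngfr changed by 5.05. The part of any of these cells in the values of the 9 genes was not tested.

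Markers of the normal cerebellum were lower beside the myelin genes. Of 10 astrocyte and Bergmann glia markers, 8 were lower in tumours, led by Gja1, Aldoc, Slc1a3 and Gdf10, and 2 (Fabp7 and Gfap) did not pass, with sums of 25.7 to 71.9 in tumours and 271 to 299 in normal cerebella. The 10 neuron markers, led by Pcp2, Itpr1, Snap25 and Cbln1, summed to 33.6 to 50.9 in tumours and 453 to 475 in normal cerebella. The markers of granule precursors and hedgehog tumours, led by Mycn, Sfrp1, Ccnd2 and Gli2, went the other way, at 278 to 364 in tumours and 101 to 114 in normal cerebella, as did microglia markers (6 of 8 higher, led by C1qc, Aif1, C1qb and C1qa, 1 lower), at 18 to 32.6 in tumours and 3.69 to 4.89 in normal cerebella. On the same scale Mog, Mobp, Mag and Mal summed to 0.526 to 2.29 in tumours and 15.7 to 27.6 in normal cerebella. With Mbp on its brightest, level probe the 5 myelin genes summed to 6.71 to 10.6 in tumours and 22.4 to 33.7 in normal cerebella, while the 4 precursor genes summed to 9.83 to 18.3 in tumours and 2.65 to 4.66 in normal cerebella. Between the types, 1 astrocyte marker was called higher in R-type tumours. Of the neuron markers 1 was higher and 1 lower, as among the granule precursor markers, and 2 microglia markers were lower. Over all tested genes 10.9% were called higher and 10.1% lower. How much of each change goes with the share of cells was not tested.

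Genes with the most similar pattern over the 12 tumours were named among 12464 genes well above background on at least 6 tumour arrays, by Pearson correlation, as a description. For Pdgfra they were AI837181 (0.905), Kdm2b (0.900) and Smyd3 (0.896). For Olig2 they were Rspo1 (0.948), Zcchc24 (0.938) and Nfatc1 (0.888), and for Mbp on its brightest probe Rabgap1 (0.850), Ldb1 (0.829) and Amph (0.824). The Olig2 genes were found with its brightest probe, on which MB3 read −0.20, a low value that the other Olig2 probe did not show. How far they rest on MB3 was not tested. The highest of so many correlations over 12 samples is high by its choice.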

How the data were processed

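RNA of 12 medulloblastomas and 3 normal cerebella was measured on 15 one-colour Agilent arrays, 1 per sample, and samples were grouped by their labels. The deposited scanner files give each spot as a linear intensity, which the authors obtained with background subtraction and without scaling between arrays, per the file headers. The submitters' processing notes name Agilent Feature Extraction, version 9.5.1. The deposited series table holds log2 values. Array-to-array differences in it matched those of the scaled signals (r 0.99985 to 0.99999), and its MB1 and MB2 columns summed to 0 at each probe to within 1e-06, so its direction and scale were taken as log2 values centred on these arrays. Why they served as the centre, and the scaling before it, are unknown. Its column medians were 0.0023, 0.0817 and 0.0889 (Normal 1 to 3), then, starting at MB1 and ending at MB12, 0.0506, −0.0506, 0.106, 0.0683, −0.0795, 0.0526, 0.0704, 0.130, 0.127, 0.0912, 0.152 and 0.0996. It served as an alternative input.

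The log2 processed signal less the 75th percentile of each array was used, spots of a probe averaged, control spots and 76 flagged probes left out (0 of the 17 probes described, none of them saturated). Of 41098 probes used, 24800 were named from RefSeq through their accession; others kept it as their name. The probe with the highest mean over 15 arrays measured a gene, and testing covered the 21661 names with a signal well above background on 3 or more arrays. Genome builds of the array annotation and the gene table differ, so no probe coordinates are given. A probe that stayed in the background throughout a group gives a bound in place of a fold change. The 5 group means came from a linear model in limma (version 3.58.1, R 4.3.3, 10 residual and 1.71 prior degrees of freedom), 9 contrasts were tested two-sided, and Benjamini-Hochberg adjustment at 0.05 ran over all tested genes. The fit was tested on simulated data. Tables were made with Python 3.11.15, pandas 2.3.3, numpy 2.4.6 and scipy 1.17.1. Labels do not say more of the replicates than separate sample numbers, so p-values measure the spread between these samples. Each array was counted as its own sample by its label. The highest correlation between any 2 arrays was 0.991, which cannot show whether the samples are independent. The number of arrays limits the precision.

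The 9 genes, the lists and the tests were chosen with earlier results of these data known. Named genes were the 9 with all their probes and the 3 genes of most similar pattern. Of each list, up to 4 with the smallest adjusted p between tumours and normal cerebella were named. List members called between the types were also named, except among neuron, astrocyte, granule precursor and microglia markers, which were only counted. Any other gene named was chosen after its values were seen. Of the genes listed, Ermn, Plekhh1, Sox10, Xylt1, Myrf, Zfp488 and Ccnd1 were not matched to a probe. 1 marker of Schwann cells, and the sum over that list, are not reported here. Alternatives were background correction by normexp on spot medians (offset 50), quantile normalization, no scaling, the series table, no filter or a filter on all 15 arrays, the mean of all probes, fits of the compared groups alone, slide as a block, each array left out and, chosen after seeing the data, each other probe of a gene.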

Additional observations from a re-analysis of the deposited data

Results flagged for a closer look

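Among 18 sets of 6 tumours (9 genes in each type), 1 held an array far from the others. Olig2 read −0.20 in MB3, where the other 5 S-type tumours lay at 1.19 to 1.52. About 1 set in 20 (5%) gives such a value by chance. On the other Olig2 probe MB3 read −3.59, with the S-type tumours at −4.53 to −3.59, so the low value is seen on 1 of 2 probes.

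Mal differed between the types in its change from normal cerebellum, by 0.54 more in R-type than in S-type tumours (limma adjusted p 0.0448), with overlapping values and a call that most single arrays could end.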

How the results depend on the processing

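Between tumours and normal cerebella the calls of Pdgfra, Cspg4, Olig2, Mog, Mag, Mal and Mobp held under all alternatives that tested them. Under the filter on all 15 arrays Mog and Mobp were not tested, so 2 myelin genes were called lower in that comparison and 2 members in each of the 4 group comparisons. Normexp, which lifts dim signals, brought Mog to −2.96 and Mobp to −4.51. For Mbp the change was −0.04 without scaling, −3.75 as the mean of all probes, and −5.49 and −5.90 on its other probes. Olig1 passed in 1 alternative, without MB3 (1.04).

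Between the types, the number of called members was 2 without scaling, 0 with no filter, and 0 to 2 when each array was left out. Without scaling the calls over all genes were 577 higher and 5805 lower and with normexp 3434 and 1619, against 2360 and 2183 in the reported fit; at 0.2 Gy they were 158 and 2515, and 824 and 531, against 430 and 603. No scaling moved the median over all genes to −0.04 between tumours and normal cerebella. Members not called changed sign between the types. Mbp gave −0.03 with quantile normalization, −0.21 without scaling, −1.13 as the mean of probes, −0.03 with slide as a block, −1.69 and −1.72 on the other probes, and −0.05 to 0.05 with arrays left out. Mog gave 0.07 with normexp. Olig1 gave −0.02 with normexp, −0.03 with quantile normalization, −0.20 without scaling and −0.38 to 0.34 with arrays left out. Mobp gave −1.06 to 0.02 with arrays left out, and Olig2 0.15 on its other probe. The causes were not tested.

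In the 3 comparisons at matched dose or within a type no alternative called a member. No paired analysis was possible because the labels number tumours and normal cerebella separately, so equal numbers name different mice. Background limits Mog in tumours, and the dim probes of Mobp, Olig2 and Pdgfra, to bounds.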
